A study of Saccharomyces cerevisiae with 11 samples.

Results

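The comparison described here set the transcriptome of budding yeast (Saccharomyces cerevisiae) that relied on the Abf1 construct LS15 against that of yeast with wild-type Abf1. Its members were 4 of the 11 total RNA libraries of the series, chosen by their labels: 2 LS15 libraries and 2 wild-type Abf1 libraries. All libraries came from the Abf1 anchor-away strain labelled ABF1-aa-V5 clone A9 (background labelled BY4741), in which the chromosomal Abf1 carries a tag that lets rapamycin tie it to a ribosomal protein and carry it out of the nucleus. A pRS315 plasmid, selected through its LEU2 marker, supplied the Abf1 to be tested. Both LS15 libraries had 1.25 h of rapamycin at 8 µg ml−1, as did 1 wild-type Abf1 library, whereas the other wild-type Abf1 library had 1 h of rapamycin and carries another batch date. Within wild-type Abf1, rapamycin time, batch and replicate therefore cannot be told apart. The other 7 libraries carried no Abf1 (3 libraries) or the constructs NCS506 and EM shuffle (2 libraries each), all with 1.25 h of rapamycin in the batch of the LS15 libraries. The replicates are described as independent clones of the transformed strain.

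Abf1 is an essential general regulatory factor, a protein that binds a defined DNA sequence in many promoters and keeps nucleosomes away from it. Its DNA-binding domain is flanked by intrinsically disordered regions (IDRs), of which IDR2 is needed for life. LS15 is a version of IDR2 whose residues were shuffled locally outside a central stretch that holds the essential motif, and cells that have it as their only Abf1 live but grow slowly. Per the paper, the shuffled residues include Abf1G4, a stretch that it proposes to be a further motif that is not essential. The construct also lacks IDR1 and holds a version of IDR2 shortened at its end, while the wild-type plasmid encodes the full-length protein. Per the paper's methods, such designed constructs also carry an added nuclear localisation signal and a Flag tag. The paper reports a growth rate like that of wild type for the unshuffled, shortened IDR2 without IDR1. The effects of the shuffle and of these other differences on RNA cannot be told apart from these 4 libraries. Many Abf1-bound promoters belong to genes for protein synthesis, and yeast that grows slowly typically makes less RNA for ribosomes and more for reserve carbohydrates and stress protection.

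Sequencing depth was 920044 and 1656533 counts in LS15 replicates 1 and 2, against 1422833 and 1359428 counts in the wild-type Abf1 libraries of 1 h and 1.25 h. LS15 replicate 1 was the shallowest of the 11 libraries, which reached up to 2195476 counts. Values below are library-size normalised counts (CPM, with TMM factors), and log2 ratios of single LS15 libraries are taken over the mean log2 level of the 2 wild-type Abf1 libraries. The tagged gene gave no check of the labels. ABF1 (YKL112W, chromosome XI, 226570 to 228765) had 355 and 189 CPM in LS15 and 314 and 364 CPM in wild-type Abf1, and the chromosomal and plasmid copies were counted together. FPR1, which anchor-away strains usually lack so that rapamycin acts on the tag alone, had 3.38 and 5.49 CPM in LS15 and 1.68 and 5.57 CPM in wild-type Abf1. Most mating-type markers did not bear out the strain label in the 4 libraries. BY4741 is an a-mating strain, yet STE3, a receptor gene of alpha cells, had 199 and 153 CPM in LS15 and 261 and 182 CPM in wild-type Abf1. The a-factor gene MFA1 stayed between 0 and 0.61 CPM in these 4 libraries. Of the other a-cell genes, STE6 was counted, with 29.3 and 22.6 CPM in LS15 and 16.8 and 21.6 CPM in wild-type Abf1. STE2 reached 7.88 CPM in LS15 replicate 1. LEU2, the plasmid marker, had 238 and 342 CPM in LS15, against 1170 and 1130 CPM in wild-type Abf1, which is 3.96-fold lower (log2 −1.99, SE 0.31, adjusted p = 0.0129, edgeR with Benjamini-Hochberg adjustment). With each of the 4 libraries left out in turn, its adjusted p lay between 0.00876 and 0.0937. Plasmid dose and LEU2 transcription cannot be told apart here.

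LS15 replicate 1 lay closer to the libraries with no Abf1 than to LS15 replicate 2. Over 3543 features with a mean of at least 50 counts, the root mean square log2 difference between the LS15 replicates was 0.443. The 2 wild-type Abf1 libraries also differed by 0.443 and the EM shuffle replicates by 0.571, so the LS15 pair was not the widest. The difference of LS15 replicate 1 from the 3 no Abf1 libraries was 0.293, 0.259 and 0.257, close to the 0.232 to 0.258 among those libraries themselves. LS15 replicate 2 differed from the same 3 libraries by 0.444, 0.468 and 0.457, and from the 2 NCS506 libraries by 0.317 and 0.349, close to the 0.307 between the NCS506 replicates. From the wild-type Abf1 libraries of 1 h and 1.25 h, LS15 replicate 1 differed by 0.737 and 0.835 and LS15 replicate 2 by 0.544 and 0.619. LEU2 did not follow this order, with 797, 757 and 743 CPM in no Abf1, all above both LS15 libraries. Iron uptake genes also set LS15 replicate 1 apart, with a median of 0.68 (log2 over wild-type Abf1), against 0.295, 0.46 and 0.51 in no Abf1. TIS11 had 36.0 CPM in LS15 replicate 1 and 9.04, 14.1 and 13.4 CPM in no Abf1. SIT1 had 99.1 CPM in LS15 replicate 1 and 50.2, 61.9 and 60.8 CPM in no Abf1. These distances are descriptions without a test. They leave it in doubt whether LS15 replicate 1 is the library or clone that its label says, and this was not tested. Most calls below rest on that library, since leaving it out took the 618 features called to 3. Each result is therefore given per LS15 replicate.

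Sites for Abf1 itself are shown first for genes that fell. Upstream sequence of 400 bases was searched on both strands for the Abf1 consensus, which 16.1% of 5866 promoters hold. The 8 largest falls among called genes with a match and a mean of at least 50 counts had 9 matches, shown with 5 bases on each side, read 5′ to 3′ on the strand of the match, with the positions that the consensus defines in capitals. Coordinates are those of the match in the R64 assembly, and sequences were read from its RefSeq copy.
MGE1 (chrXV:774349-774361, minus strand): aaaatATCACtgaatACGtatgc
MNN11 (chrX:83890-83902, minus strand): caattATCACttgtaACGaaata
IPP1, distal match (chrII:258186-258198, minus strand): atatcGTCATcgcagACGctaag
IPP1, proximal match (chrII:258149-258161, minus strand): ccacaGTCATtagatACGatagt
DSL1 (chrXIV:160512-160524, plus strand): tgtatATCGCtattgACGaaaga
SEC16 (chrXVI:386777-386789, minus strand): tgatgATCACttataACGttgtg
CHO1 (chrV:208665-208677, minus strand): tcaaaATCACtttgaACGttcac
TPM2 (chrIX:89835-89847, minus strand): ttattGTCATatactACGaaaaa
LOG1 (chrX:333240-333252, minus strand): tatatATCACtgcagACGgagta

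These matches ended 104 (LOG1) to 277 (SEC16) bases before the start of the gene, with MGE1 at 211, MNN11 at 165, IPP1 at 210 and 173, DSL1 at 138, CHO1 at 190 and TPM2 at 119 bases. MGE1 (YOR232W, chromosome XV, 774573 to 775259), the nucleotide exchange factor of the mitochondrial Hsp70, had 4.51 and 36.0 CPM in LS15 and 93.8 and 100 CPM in wild-type Abf1. IPP1, the cytosolic inorganic pyrophosphatase, had 85.6 and 264 CPM in LS15 and 701 and 679 CPM in wild-type Abf1. Both genes lay below wild-type Abf1 in each LS15 replicate, and far lower in replicate 1. CHO1, which makes phosphatidylserine, had 18.0 and 84.2 CPM in LS15 and 200 and 181 CPM in wild-type Abf1. TPM2, a tropomyosin that binds actin cables, had 7.88 and 27.5 CPM in LS15 and 82.9 and 51.5 CPM in wild-type Abf1. In the 3 libraries with no Abf1, MGE1 had 5.02, 6.56 and 7.21 CPM, at the level of LS15 replicate 1, and the 2 NCS506 libraries had 51.7 and 42.5 CPM, nearer to LS15 replicate 2. DSL1, part of a complex that tethers vesicles at the endoplasmic reticulum, had nearly equal levels in both LS15 replicates, with 19.1 and 18.3 CPM in LS15 and 73.7 and 59.9 CPM in wild-type Abf1. SEC16, which organises exit sites of the endoplasmic reticulum, had 51.8 and 188 CPM in LS15 and 396 and 483 CPM in wild-type Abf1, and MNN11, part of a Golgi mannosyltransferase, had 6.76 and 20.7 CPM in LS15 and 51.1 and 70.3 CPM in wild-type Abf1. The 8 genes were chosen for their fall, so these levels are a description.

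Across the 5329 features with 10 or more counts in at least 2 of the 4 libraries, 618 were called in LS15 against wild-type Abf1 (11.6% of those tested, edgeR quasi-likelihood test, Benjamini-Hochberg adjusted p under 0.05). Of these, 250 were higher (4.69%) and 368 lower (6.91%) in LS15. In all 618 called features both LS15 libraries lay outside the range of the wild-type Abf1 libraries, on the same side. Over all features tested, both LS15 libraries lay above both wild-type Abf1 libraries in 29.3% and below them in 27.5%. Both LS15 libraries were at least 2-fold beyond the wild-type Abf1 mean in 94 called features that rose and 111 that fell. The size differed between the replicates: 483 of the 618 called features were farther from wild-type Abf1 in LS15 replicate 1, with medians of 1.11 (log2, replicate 1) and 0.91 (replicate 2) for those that rose and −1.14 and −0.85 for those that fell. Without LS15 replicate 1, the fit called 3 features, the acid phosphatase gene PHO3 and, named after seeing their values, RIB4 and YAT1 (1 higher, 0.0188%, and 2 lower, 0.0375%), and 1003 had an unadjusted p under 0.05. Without LS15 replicate 2 it called 171 higher (3.21%) and 338 lower (6.34%). Against the wild-type Abf1 library of the same batch and rapamycin time alone, 149 features were called higher (2.8%) and 175 lower (3.28%). Against the 1 h library alone, 13 were called higher (0.244%) and 112 lower (2.1%). A fit of only these 4 libraries called 1 feature (SPG4), with 1329 at an unadjusted p under 0.05. Counts were simulated for this comparison alone, with the same fold in both LS15 libraries and no batch difference. Among genes that averaged 50 counts or more, the test recovered 55.2% of the changes set at 2-fold and 96.3% of those set at 3-fold. Differences of 2-fold or less could therefore pass undetected. The real LS15 replicates differed in size of change and the wild-type Abf1 libraries in batch, so these shares may be too favourable.

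**Figure D1:**
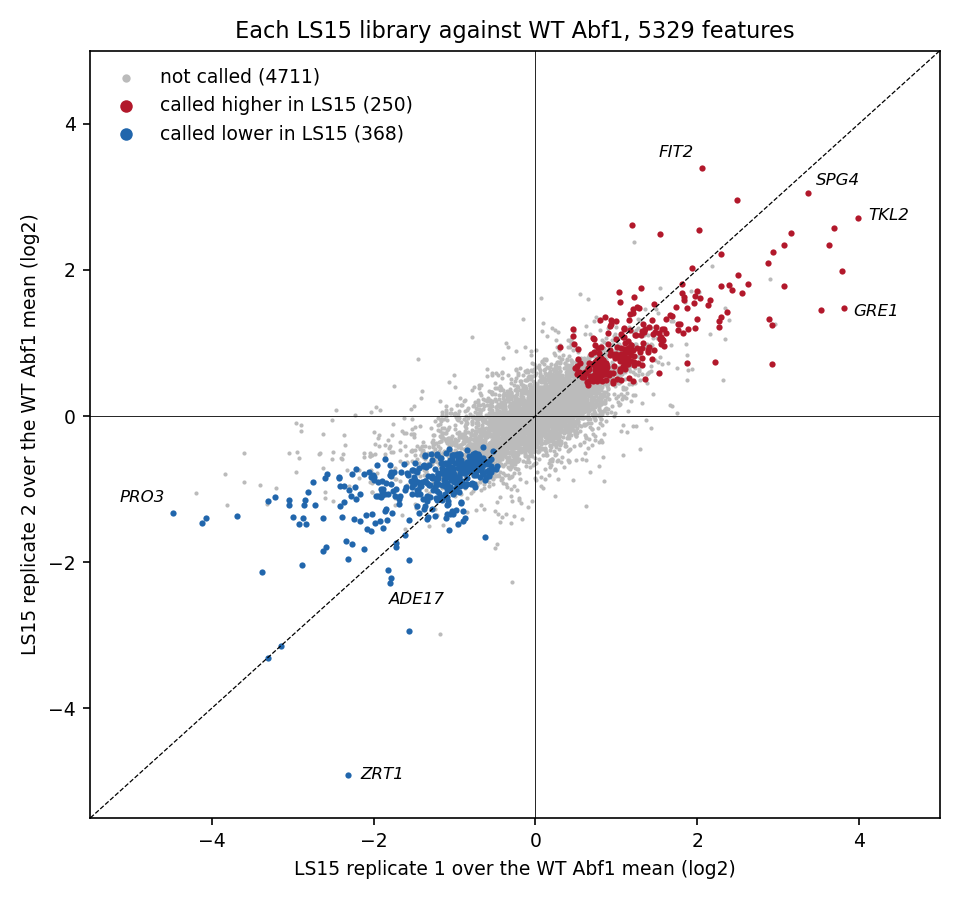
Log2 level of each feature in LS15 replicate 1 (x axis) and LS15 replicate 2 (y axis) over the wild-type Abf1 mean, with 250 features called higher in red, 368 called lower in blue and the rest in grey; the dashed line marks equal values. Called features lie on one side of 0 in both replicates, and those that fell reach farther along the axis of replicate 1.

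Functions were followed through 34 gene lists ordered by role, which held 1066 tested genes. A list was described as moved in both LS15 replicates where at least 25% of its tested members were called in 1 direction and both LS15 medians had that sign. By this measure 5 lists were lower in LS15 (cytosolic ribosomal proteins, aminoacyl-tRNA synthetases, purine and one-carbon synthesis, the CCT chaperonin with prefoldin, and fatty acid and sterol synthesis). Another 5 were higher (hexose transporters and sensors, trehalose and glycogen metabolism, stationary-phase and hydrophilin stress genes, iron uptake, and beta-oxidation with the glyoxylate cycle), and 24 had not moved. The LS15 medians shared a sign in 30 of the 34 lists and were farther from 0 in replicate 1 in 21. The median over all features tested was 0.02 in the group comparison, and 0.02 and 0.01 in LS15 replicates 1 and 2. Lists were not tested as sets, and the bulk libraries cannot tell less RNA per cell from fewer cells that express a gene.

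**Figure D2:**
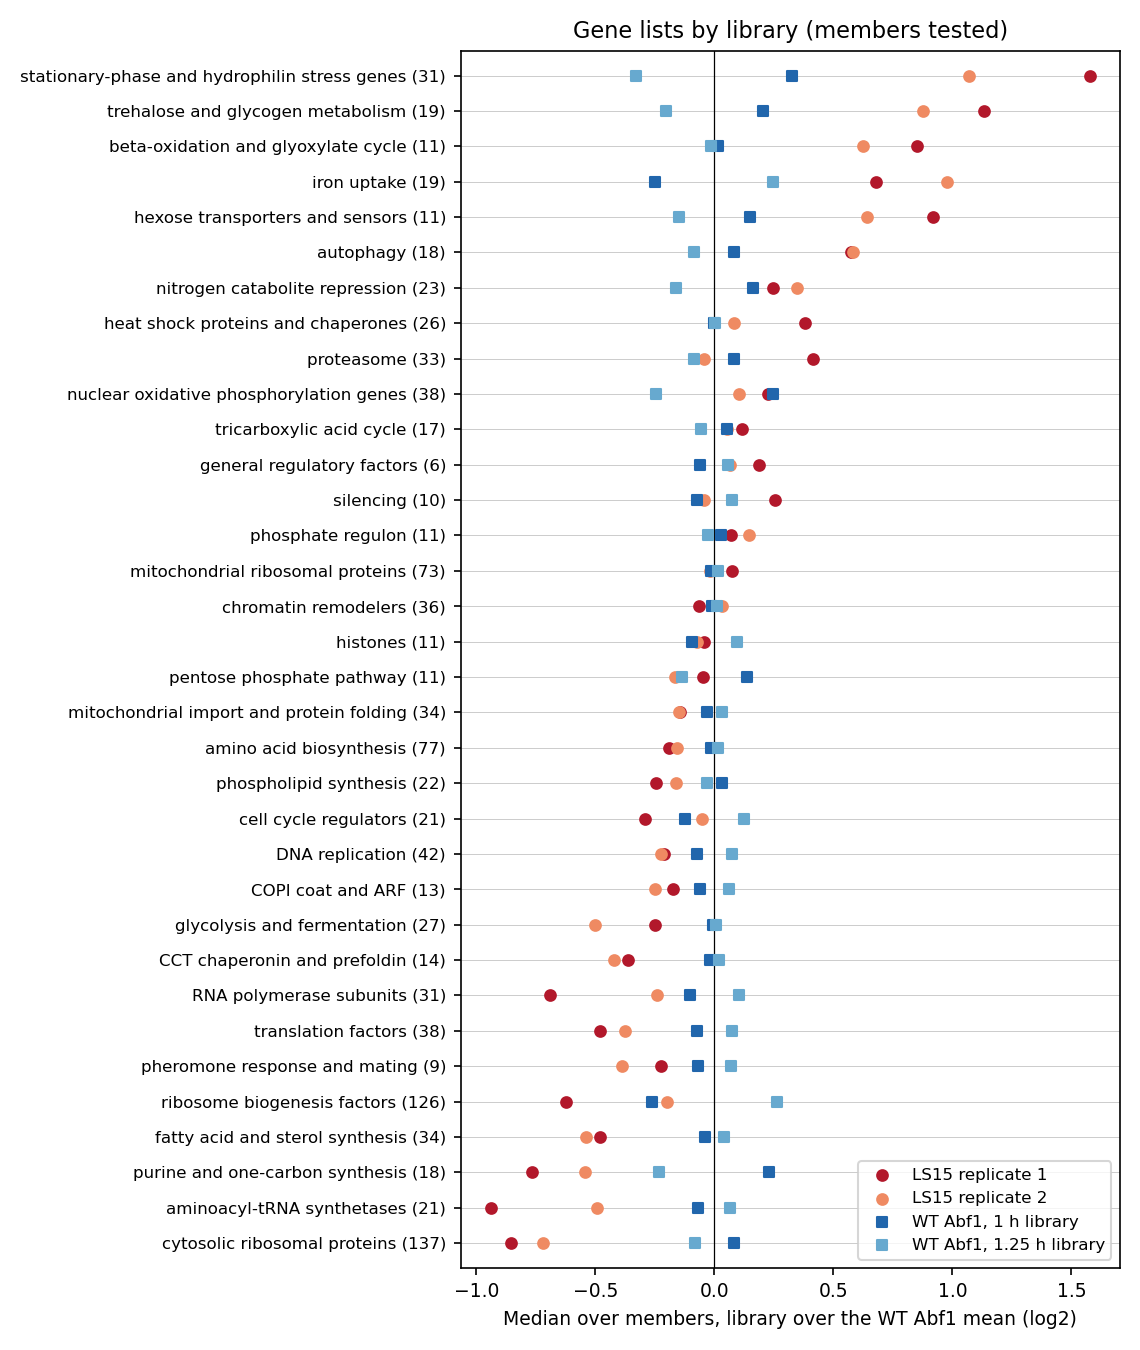
Median log2 level of the tested members of each of the 34 lists (number in brackets) over the wild-type Abf1 mean, for LS15 replicates 1 and 2 (red and orange circles) and the wild-type Abf1 libraries (dark and light blue squares). Both LS15 medians of ribosomal protein genes lie near −0.8, beyond either wild-type Abf1 library, and both medians of stationary-phase genes lie above 1.

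The genes for the cytosolic ribosome fell together. Of 137 ribosomal protein genes tested, 81 were lower in LS15 (59.1%, against 6.91% of all features) and none was higher, 56 did not pass the test, and the median log2 fold change was −0.78. All 137 were below the wild-type Abf1 mean in LS15 replicate 1 and in LS15 replicate 2, with medians of −0.85 and −0.72. In 131 both LS15 libraries lay below both wild-type Abf1 libraries, as they did in 27.5% of all features. The wild-type Abf1 libraries of 1 h and 1.25 h had medians of 0.08 and −0.08. Large and small subunit genes had medians of −0.75 (51 of 81 lower) and −0.84 (30 of 56 lower). RPL6B had 167 and 233 CPM in LS15 and 519 and 563 CPM in wild-type Abf1, RPS19A had 104 and 121 CPM in LS15 and 271 and 304 CPM in wild-type Abf1, and RPS6B had 137 and 146 CPM in LS15 and 343 and 373 CPM in wild-type Abf1. RPL13A, which encodes a ribosomal protein used as an anchor in anchor-away strains, had 243 and 184 CPM in LS15 and 281 and 299 CPM in wild-type Abf1 and did not pass the test (log2 −0.45, adjusted p = 0.126, edgeR with Benjamini-Hochberg adjustment). The fold changes ran from −1.44 to −0.35 (log2), a narrow band. Most of these genes have a near-identical copy, so the split of reads between the 2 copies is uncertain. The count of genes called lower was 0 without LS15 replicate 1, 40 without LS15 replicate 2, 26 against the same-batch wild-type Abf1 library and 27 against the 1 h library. Over the same-batch wild-type Abf1 library, the medians of LS15 replicates 1 and 2 were −0.75 and −0.64.

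Enzymes that charge tRNAs with amino acids also fell, with 10 of 21 aminoacyl-tRNA synthetase genes lower in LS15 (47.6%), none higher and a median of −0.72 (−0.94 and −0.49 in replicates 1 and 2). All 21 were below the wild-type Abf1 mean in both replicates. HTS1 (histidine) had 82.2 and 146 CPM in LS15 and 284 and 338 CPM in wild-type Abf1, and TYS1 (tyrosine) had 66.5 and 126 CPM in LS15 and 250 and 258 CPM in wild-type Abf1. MES1 (methionine) had 128 and 199 CPM in LS15 and 375 and 406 CPM in wild-type Abf1. An Abf1 consensus match lay upstream of 11 of the 21 genes, and these had a median of −0.84, against −0.51 for the 10 without one. In LS15 replicate 1 the medians were −1.27 with and −0.62 without a match, and in replicate 2 they were −0.59 and −0.41. Counts called lower were 0 without LS15 replicate 1, 11 without replicate 2, 6 against the same-batch wild-type Abf1 library and 1 against the 1 h library.

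Within the CCT chaperonin, which folds actin and tubulin, 5 of the 8 subunit genes were lower in LS15 and no prefoldin gene was called, giving 5 of 14 for the list (35.7%, median −0.36, replicate medians −0.36 and −0.42). CCT5 had 36.0 and 104 CPM in LS15 and 239 and 251 CPM in wild-type Abf1, and CCT8 had 94.6 and 149 CPM in LS15 and 248 and 238 CPM in wild-type Abf1. CCT2 had 104 and 132 CPM in LS15, against 191 and 242 CPM in wild-type Abf1. All 5 genes that fell were among the 8 list members with a consensus match upstream, whose median was −0.88, against −0.12 for the 6 members without one. Counts called lower were 0 without LS15 replicate 1, 4 without replicate 2, 3 against the same-batch wild-type Abf1 library and 0 against the 1 h library.

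Purine synthesis fell against the wild-type Abf1 mean, but the wild-type Abf1 libraries differed in it. Of 18 genes for purine and one-carbon synthesis, 5 were lower in LS15 (27.8%) with a median of −0.65 and replicate medians of −0.77 and −0.54. ADE17, which catalyses late steps of purine synthesis, had 68.7 and 84.2 CPM in LS15, against 574 and 158 CPM in the 1 h and 1.25 h wild-type Abf1 libraries. ADE4, the first enzyme of the pathway, had 46.2 and 77.5 CPM in LS15 and 241 and 104 CPM in wild-type Abf1. Against the 1.25 h library of the same batch, 1 of the 18 was called lower and the medians were −0.47 and −0.30, and against the 1 h library 7 were called lower. Rapamycin time, batch and clone differ together between those libraries. ADE16, which encodes the same activity as ADE17, had 507 and 421 CPM in LS15 and 371 and 322 CPM in wild-type Abf1 and did not pass the test.

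In lipid synthesis, 10 of 34 genes for fatty acids and sterols were lower in LS15 (29.4%) and 1 was higher, with a median of −0.52 (−0.48 and −0.54 in replicates 1 and 2). The list medians of the replicates were close, but single genes such as ERG10 and ACS1 were not. ERG11, the sterol demethylase that azole drugs block, had 155 and 165 CPM in LS15 and 271 and 406 CPM in wild-type Abf1. ERG20, which makes farnesyl diphosphate, had 140 and 164 CPM in LS15 and 296 and 294 CPM in wild-type Abf1. ERG10, the thiolase that opens the sterol pathway, had 74.3 and 149 CPM in LS15 and 257 and 266 CPM in wild-type Abf1. The member that rose was ACS1, the acetyl-CoA synthetase used on non-fermentable carbon, with 366 and 104 CPM in LS15, against 39.4 and 16.0 CPM in wild-type Abf1. The other acetyl-CoA synthetase gene, ACS2, fell, with 331 and 324 CPM in LS15 and 502 and 550 CPM in wild-type Abf1. Against the same-batch wild-type Abf1 library 7 of the 34 were lower, against the 1 h library 1 was, without LS15 replicate 2 the count was 5, and without LS15 replicate 1 it was 0.

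**Figure D3:**
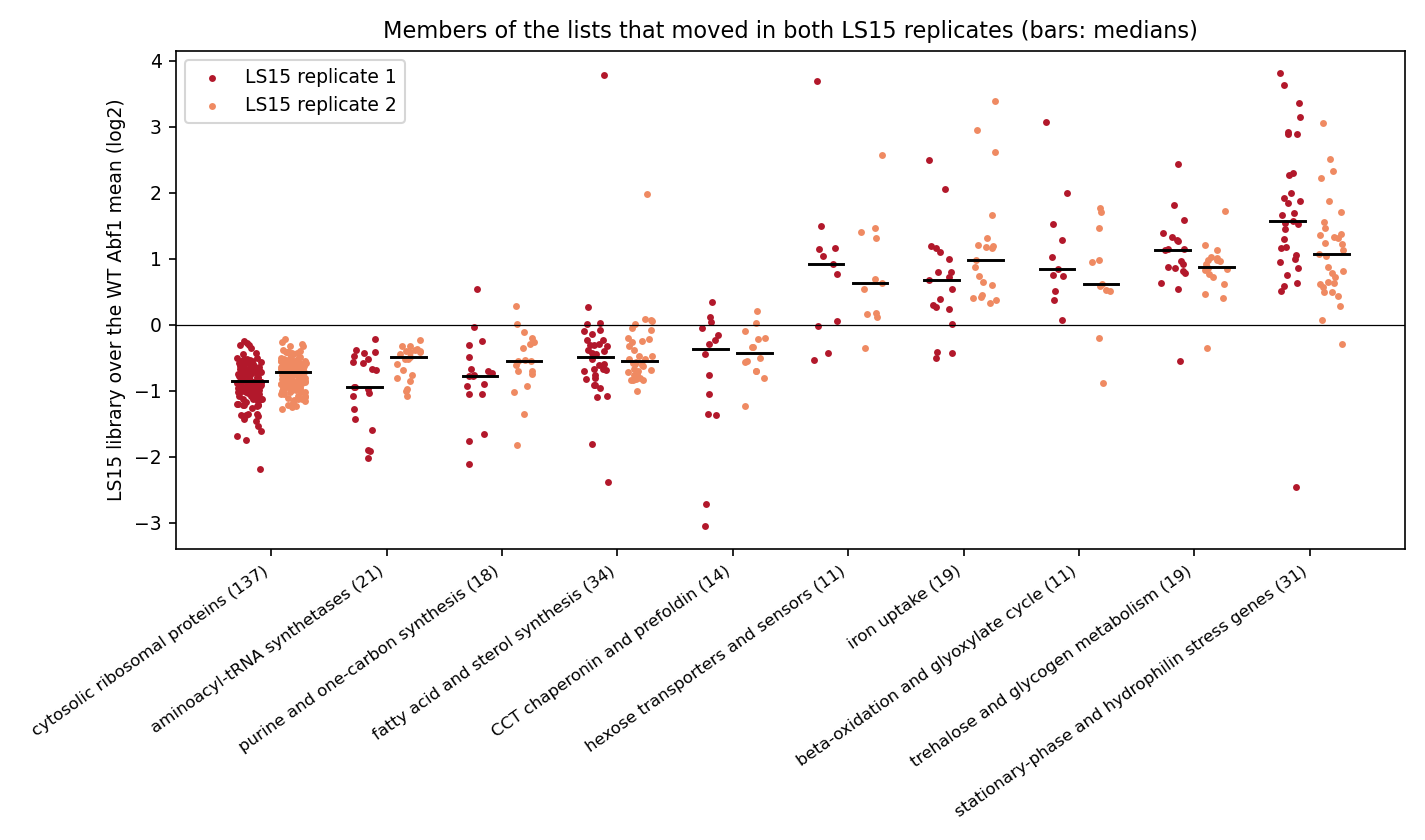
Log2 level of each tested member over the wild-type Abf1 mean for the 10 lists that moved, with LS15 replicate 1 in red, LS15 replicate 2 in orange and bars at the medians. The points of the ribosomal protein genes lie below 0 in both replicates, and the highest points are GRE1 and HBT1 (stationary phase), ACS1 (lipids) and HXT5 (hexose transporters) in replicate 1.

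Stationary-phase and hydrophilin stress genes had the highest median of the 34 lists. Of 31 tested, 14 were higher in LS15 (45.2%, against 4.69% of all features) and none was lower, with a median of 1.31 and replicate medians of 1.58 and 1.07. In 29 of them both LS15 libraries lay above both wild-type Abf1 libraries, as they did in 29.3% of all features. SPG4, needed by cells in stationary phase, had 280 and 226 CPM in LS15 and 29.3 and 23.0 CPM in wild-type Abf1, a 9.67-fold rise (log2 3.27, SE 0.73, adjusted p = 0.0225, edgeR with Benjamini-Hochberg adjustment). HBT1, a protein of the mating projection, had 1560 and 633 CPM in LS15 and 167 and 92.6 CPM in wild-type Abf1. PHM7, whose function is not known, had 1450 and 926 CPM in LS15 and 269 and 96.8 CPM in wild-type Abf1. The catalase gene CTT1 rose too, with 1790 and 1130 CPM in LS15, against 610 and 326 CPM in wild-type Abf1. HSP12, a membrane-stabilising hydrophilin, had 2870 and 1410 CPM in LS15 and 415 and 354 CPM in wild-type Abf1 and did not pass the test (log2 2.47, SE 0.83, adjusted p = 0.0726, edgeR with Benjamini-Hochberg adjustment). STF1, an inhibitor of the mitochondrial ATP synthase, had 6.76 and 45.8 CPM in LS15 and 57.0 and 32.7 CPM in wild-type Abf1, so the groups overlapped, and it was the only member with a consensus match upstream. The list also varied among wild-type Abf1 libraries, with medians of 0.33 (1 h) and −0.33 (1.25 h). The number called higher was 0 without LS15 replicate 1, 14 without replicate 2 (with 1 lower), 9 against the same-batch wild-type Abf1 library and 0 against the 1 h library.

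Storage carbohydrate genes rose with them. Of 19 genes for trehalose and glycogen, 7 were higher in LS15 (36.8%, against 4.69% of all features) and none was lower. The median was 1.01 and the replicate medians were 1.13 and 0.88. In 18 of the 19 both LS15 libraries lay above both wild-type Abf1 libraries, as they did in 29.3% of all features. The exception was PGM1, with 121 and 138 CPM in LS15 and 165 and 188 CPM in wild-type Abf1. GDB1, the glycogen debranching enzyme, had 1360 and 832 CPM in LS15 and 308 and 203 CPM in wild-type Abf1. TPS1, trehalose-6-phosphate synthase, had 1690 and 1400 CPM in LS15 and 841 and 690 CPM in wild-type Abf1. Genes that build and genes that break down these stores were both among those that rose: NTH2 and ATH1, which cleave trehalose, had 246 and 226 CPM and 285 and 184 CPM in LS15, against 120 and 102 CPM and 98.9 and 88.5 CPM in wild-type Abf1. The numbers called higher were 0 without LS15 replicate 1, 4 without replicate 2, 5 against the same-batch library and 0 against the 1 h library.

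Of 11 hexose transporter and sensor genes tested, 4 were higher in LS15 (36.4%) and none was lower (median 0.71, replicate medians 0.92 and 0.64). HXT5, a transporter made by slowly growing and starved cells, had 366 and 168 CPM in LS15 and 43.6 and 16.7 CPM in wild-type Abf1. HXT1, the low-affinity transporter, had 1050 and 1240 CPM in LS15 and 565 and 388 CPM in wild-type Abf1, and HXT2 had 2580 and 2870 CPM in LS15 and 1430 and 935 CPM in wild-type Abf1. HXT3 and HXT4 did not pass the test and had overlapping groups, with 1350 and 1540 CPM in LS15 and 1250 and 1490 CPM in wild-type Abf1 for HXT3. Transporter genes share sequence, so reads between close copies such as HXT6 and HXT7 are uncertain. For fatty acid use, 5 of 11 beta-oxidation and glyoxylate cycle genes were higher in LS15 (45.5%), none was lower, and the median was 0.85 (0.85 and 0.62 in replicates 1 and 2). CIT2, the peroxisomal citrate synthase, had 1100 and 1260 CPM in LS15 and 566 and 361 CPM in wild-type Abf1. POT1, the peroxisomal thiolase, was low throughout, with 34.9 and 13.4 CPM in LS15 and 2.51 and 3.48 CPM in wild-type Abf1. Without LS15 replicate 1 neither list had a called member. Against the same-batch wild-type Abf1 library each had 2, and against the 1 h library neither had one.

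Iron uptake was the one list of those that rose whose median was higher in LS15 replicate 2, with 0.68 in replicate 1 and 0.98 in replicate 2. Of 19 genes, 7 were higher (36.8%), none was lower and the median was 0.80. FIT2, a cell wall protein that retains iron-loaded siderophores, had 50.7 and 130 CPM in LS15 and 5.86 and 20.2 CPM in wild-type Abf1. SIT1, a siderophore transporter, had 99.1 and 267 CPM in LS15 and 26 and 69.0 CPM in wild-type Abf1. AFT1, the activator of iron-responsive genes, had 141 and 157 CPM in LS15 and 76.2 and 94.7 CPM in wild-type Abf1, and its paralog AFT2 did not pass the test. FET3 and FTR1, the high-affinity oxidase and permease, overlapped between the groups, with 401 and 768 CPM in LS15 and 216 and 532 CPM in wild-type Abf1 for FET3. The wild-type Abf1 libraries of 1 h and 1.25 h had medians of −0.25 and 0.25. Calls numbered 1 against the same-batch wild-type Abf1 library and 5 against the 1 h library, and none was made without LS15 replicate 1.

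Among single genes, the largest rises and falls were taken from called features that averaged 50 counts or more, with both LS15 libraries at least 2-fold beyond wild-type Abf1. TKL2 (YBR117C, chromosome II, 474392 to 476437), the minor transketolase, had 462 and 189 CPM in LS15 and 39.4 and 19.5 CPM in wild-type Abf1, an 11.1-fold rise (log2 3.47, SE 0.71, adjusted p = 0.0175, edgeR with Benjamini-Hochberg adjustment). It was followed by SPG4, HXT5, HBT1, ACS1, the hydrophilin gene GRE1, FIT2, YNL195C, PHM7, the NADH dehydrogenase gene NDE2, FMP45 and CPP3, with log2 fold changes of 3.27 to 2.31. Of these 12 rises, 1 (ACS1) had a consensus match upstream. The largest fall was that of ZRT1, the high-affinity zinc transporter, which had 114 and 17.7 CPM in LS15 and 474 and 690 CPM in wild-type Abf1 and was 9.6-fold lower (log2 −3.26, SE 0.75, adjusted p = 0.0233, edgeR with Benjamini-Hochberg adjustment). ZPS1, also known as a gene of the zinc response, had 25.9 and 9.15 CPM in LS15 and 146 and 42.5 CPM in wild-type Abf1. Both zinc genes were lower in LS15 replicate 2 than in replicate 1. HEM13, a heme synthesis enzyme, had 21.4 and 15.9 CPM in LS15 and 78.7 and 55.0 CPM in wild-type Abf1. PRO3, the last enzyme of proline synthesis, had 5.63 and 60.4 CPM in LS15 and 149 and 160 CPM in wild-type Abf1. The remaining 8 of the 12 falls were ADE17, MGE1, MNN11, PHO3, LEU2, IPP1, DSL1 and SEC16.

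PHO3 kept its call with any 1 of the 4 libraries left out. This constitutive acid phosphatase gene (YBR092C, chromosome II, 427698 to 429101) had 110 and 89.7 CPM in LS15 and 359 and 429 CPM in wild-type Abf1, 3.97-fold lower (log2 −1.99, SE 0.17, adjusted p = 0.000468, edgeR with Benjamini-Hochberg adjustment). It was the only one of 126 named and tested genes still called without LS15 replicate 1, and its adjusted p stayed between 0.0014 and 0.00555 over the 4 fits that left out 1 library each. In the fit of only the 4 libraries it was not called (adjusted p = 0.054, edgeR with Benjamini-Hochberg adjustment), whereas SPG4 was (adjusted p = 0.013) but lost its call in 3 of the 4 fits with a library left out. The 7 libraries of the other groups had 118 to 195 CPM.

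**Figure D4:**
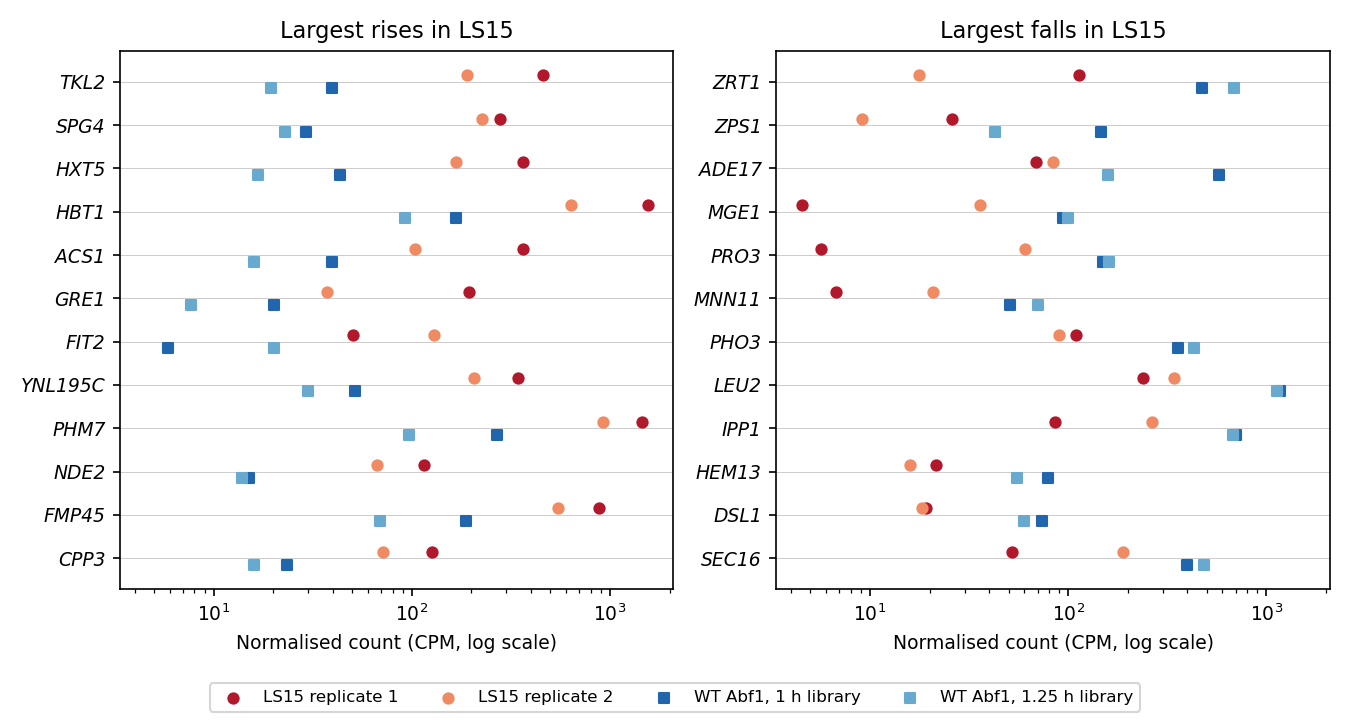
Normalised counts (CPM, log axis) of the 12 largest rises (left) and 12 largest falls (right) in LS15 replicates 1 and 2 (red and orange circles) and in the wild-type Abf1 libraries of 1 h and 1.25 h (dark and light blue squares). The groups do not overlap for any gene shown, by the rule that chose them, and PRO3, MGE1, ZRT1 and GRE1 differ the most between the LS15 replicates.

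Genes with an Abf1 consensus match in the 400 bases upstream fell more often than the others. Of 897 tested genes with a match, 179 were lower in LS15 (20%) and 17 higher (1.90%), with a median log2 fold change of −0.48, whereas of 4302 genes without one, 187 were lower (4.35%) and 232 higher (5.39%), with a median of 0.09. Thus about as many called falls lay in each class. The medians of genes with a match were −0.59 in LS15 replicate 1 and −0.36 in replicate 2, and 688 and 716 of the 897 were below the wild-type Abf1 mean. Genes without a match had medians of 0.11 and 0.08. With the window shortened to 250 bases, 143 of 666 genes with a match were lower and the median was −0.56, and with a stricter consensus it was −0.54 over 466 genes. Without LS15 replicate 1 none of the 897 was called lower, without LS15 replicate 2 there were 220, against the same-batch wild-type Abf1 library 88 and against the 1 h library 29. The other groups, which share the wild-type Abf1 libraries with this comparison, had medians of −0.57, −0.60 and −0.58 over the same genes in the 3 libraries with no Abf1 of −0.31 and −0.28 in NCS506 and of −0.30 and −0.18 in EM shuffle. A match is a stretch of letters and does not show that Abf1 binds there.

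**Figure D5:**
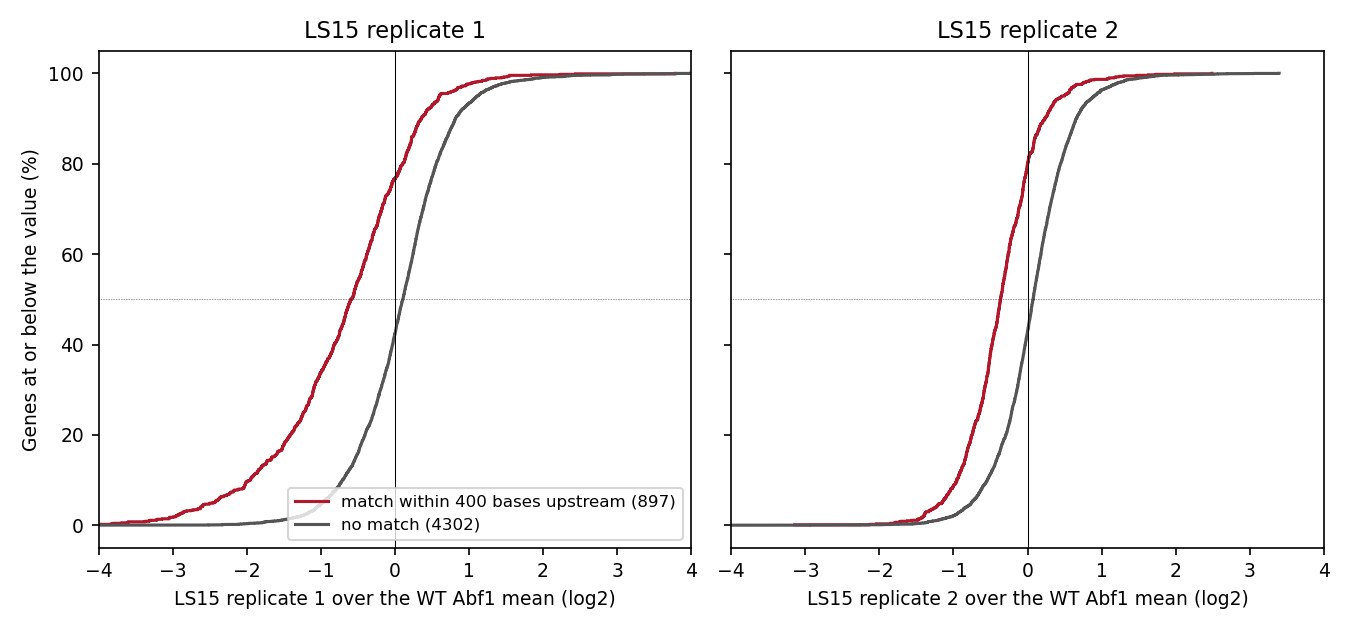
Cumulative share of genes (y axis, %) at or below a given log2 level over the wild-type Abf1 mean (x axis), for LS15 replicate 1 (left) and replicate 2 (right), with 897 genes with an Abf1 consensus match in red and 4302 without in grey. The red curve lies left of the grey one in both panels, and its lower tail reaches farther in replicate 1.

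Matches were unevenly spread over the lists. Of the 137 ribosomal protein genes, 6 of the 11 with a match and 75 of the 126 without one were called lower. Most of the 81 that fell thus had no match, as did most of the list. Matches lay upstream of only 8.03% of these genes, against 17.3% of all tested genes searched. By contrast, matches lay upstream of 40.5% of ribosome biogenesis genes, 51.6% of RNA polymerase subunit genes and 42.1% of translation factor genes. These 3 lists did not meet the measure for moved lists, and none of their genes was called higher. Called lower were 7 of 126 (5.56%), 1 of 31 (3.23%) and 6 of 38 (15.8%), against 6.91% of all features. The shares for ribosome biogenesis and RNA polymerase subunits were thus below that of all features. Medians of the 3 lists were −0.43, −0.37 and −0.38. Their median was lower in LS15 replicate 1 than in replicate 2: −0.62 and −0.20 for ribosome biogenesis, −0.69 and −0.24 for RNA polymerase subunits, and −0.48 and −0.38 for translation factors. Ribosome biogenesis also differed between the wild-type Abf1 libraries (−0.26 at 1 h and 0.26 at 1.25 h). Against the same-batch library its medians were −0.94 and −0.51 in LS15 replicates 1 and 2. SSF2, which acts in assembly of the large subunit, had 3.38 and 6.71 CPM in LS15 and 23.5 and 32.7 CPM in wild-type Abf1. RPO31, the largest subunit of RNA polymerase III, had 78.8 and 138 CPM in LS15 and 271 and 330 CPM in wild-type Abf1. HCR1, an initiation factor, had 28.2 and 51.9 CPM in LS15 and 89.6 and 111 CPM in wild-type Abf1.

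The split by match also appeared within some lists that did not move as a whole. Over all genes with a match, 20% were lower with a median of −0.48, against 4.35% and 0.09 without one. The lists below thus repeat that split and are not particular to their functions. Genes with a match had the higher median in purine and one-carbon synthesis (2 genes), trehalose and glycogen metabolism (2) and iron uptake (1). Of the 33 proteasome genes, 16 had a match and a median of −0.43, with 4 of them lower in LS15, whereas the 17 without one had a median of 0.34. RPN1, of the regulatory particle, had 166 and 326 CPM in LS15 and 506 and 522 CPM in wild-type Abf1. RPN4, the transcription activator of proteasome genes, rose although it had a match, with 357 and 240 CPM in LS15, against 119 and 137 CPM in wild-type Abf1. For mitochondrial ribosomal proteins, the 23 of 73 genes with a match had a median of −0.50 and the others 0.09, and in LS15 replicates 1 and 2 the genes with a match had medians of −1.02 and −0.19. IMG2, of the large mitochondrial subunit, had 0 and 1.83 CPM in LS15 and 12.6 and 12.5 CPM in wild-type Abf1, from 0 and 3 counts in LS15 and 15 and 18 counts in wild-type Abf1. Among 34 genes for mitochondrial import and folding, all 4 that fell (MGE1, PAM16, TOM70 and TOM22) were among the 15 with a match. TOM70, a receptor for imported proteins, had 58.6 and 86.0 CPM in LS15 and 158 and 231 CPM in wild-type Abf1. In phospholipid synthesis CHO1, the inositol transporter gene ITR1 and ECT1 fell with a match upstream. INO1, which makes inositol, rose, with 20.3 and 15.9 CPM in LS15 and 4.19 and 4.18 CPM in wild-type Abf1.

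Other functions ranged from no calls to shares above those of all features (4.69% higher and 6.91% lower). In the pentose phosphate pathway, 4 of 11 genes were higher (36.4%: TKL2, GND2, NQM1 and SOL4) and 1 was lower (9.09%). Its medians were −0.05 and −0.17 in LS15 replicates 1 and 2, so the list did not count as moved. No histone gene (11 tested), silencing gene (10 tested), general regulatory factor gene (6 tested) or pheromone response gene (9 tested) was called, but lists this short would each hold about 1 call at the 11.6% of all features. Of 36 chromatin remodeler genes, 2 were lower, the INO80 subunit gene ARP5 (21.4 and 44.5 CPM in LS15, 73.7 and 94.0 CPM in wild-type Abf1) and the RSC subunit gene RSC4 (18.0 and 43.3 CPM in LS15, 77.9 and 78.0 CPM in wild-type Abf1), both with a match. In the cell cycle list, 4 of 21 genes were lower (19%), with the mitotic cyclin genes CLB1 and CLB2 among them. CLB2 had 25.9 and 31.1 CPM in LS15 and 60.3 and 81.5 CPM in wild-type Abf1. Amino acid biosynthesis had 15 of 77 genes lower (19.5%) and 1 higher, with a median of −0.19, and nitrogen catabolite repression had 4 of 23 higher (17.4%) and 3 lower (13%). Autophagy had 2 of 18 higher (ATG2 and ATG11) but 17 of 18 above the wild-type Abf1 mean in each LS15 replicate, with medians of 0.57 and 0.58. In glycolysis and fermentation, TDH2 and ENO2 fell and ALD3, an aldehyde dehydrogenase of stressed cells, rose. TDH2 had 347 and 441 CPM in LS15 and 1240 and 1330 CPM in wild-type Abf1, and its reads can be split with TDH1 and TDH3. Of 26 heat shock and chaperone genes, 5 were higher in LS15 (19.2%), HSP26, HSP42 and HSP78 among them, and 1 was lower (3.85%). The list medians were 0.38 and 0.08 in LS15 replicates 1 and 2. HSP26 had 426 and 191 CPM in LS15 and 104 and 127 CPM in wild-type Abf1. The gene that fell was the Hsp110 gene SSE2, with a match upstream. It had 68.7 and 68.3 CPM in LS15 and 241 and 219 CPM in wild-type Abf1.

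The LS15 replicates disagreed most in a small set of genes. Lower in replicate 1 were VPS33 (5.63 and 46.4 CPM in LS15, 54.5 and 47.4 CPM in wild-type Abf1), TRP3 (5.63 and 60.4 CPM in LS15, 138 and 116 CPM in wild-type Abf1), GIS2 (12.4 and 116 CPM in LS15, 160 and 172 CPM in wild-type Abf1), PRO3 and MGE1. All but PRO3 had a consensus match upstream. For VPS33, a vacuolar sorting protein gene, LS15 replicate 2 lay next to the wild-type Abf1 libraries, and neither VPS33, TRP3 nor GIS2 was called. Higher in replicate 1 were ZRT1, ACS1, GRE1, the phosphogluconate dehydrogenase gene GND2 (135 and 28.1 CPM in LS15, 20.9 and 13.2 CPM in wild-type Abf1) and TDH1 (1030 and 281 CPM in LS15, 659 and 664 CPM in wild-type Abf1). The 2 LS15 libraries of TDH1 lay on opposite sides of wild-type Abf1.

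Set directly against no Abf1 and against NCS506, LS15 had no called feature, and LS15 was not set directly against EM shuffle. Against no Abf1, 0 of 5329 features (0.0%) were called (edgeR, Benjamini-Hochberg), 350 had an unadjusted p under 0.05, and DESeq2 called 1 (LEU2). Leaving out LS15 replicate 1 changed this: LS15 replicate 2 alone gave 83 calls against no Abf1, 75 higher and 8 lower in LS15. LS15 replicate 1 alone gave 0 calls, with 100 at an unadjusted p under 0.05. Against NCS506, a construct with random point mutations, 0 features (0.0%) were called, 395 had an unadjusted p under 0.05, and DESeq2 called 3 (SNR80, SNR49 and COX26, named after seeing their values). LS15 replicate 1 alone gave 46 calls against NCS506, 8 higher and 38 lower in LS15, and LS15 replicate 2 alone gave 0, with 169 at an unadjusted p under 0.05. Each group against wild-type Abf1 gave 618 calls for LS15, 1275 for no Abf1 (23.9%), 31 for NCS506 (0.582%) and 122 for EM shuffle (2.29%). No Abf1 had 3 libraries and the other groups 2, and replicates differed more in some groups than in others. These counts therefore do not rank the groups by size of effect. The median levels of ribosomal protein genes over wild-type Abf1 were −0.85 and −0.72 in LS15, −0.61, −0.75 and −0.77 in no Abf1, −0.75 and −0.56 in NCS506, and −0.86 and −0.34 in EM shuffle. Those of stationary-phase genes were 1.58 and 1.07 in LS15, 1.33, 1.74 and 1.62 in no Abf1, 0.81 and 0.45 in NCS506, and 0.01 and −1.23 in EM shuffle. All of these share the 2 wild-type Abf1 libraries.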

How the data were processed

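Per the labels, column-purified total RNA was converted to libraries with the NEBNext Ultra II directional kit. The study's methods and the submitters' processing notes name STAR for alignment, RSEM for quantification, and the sacCer3 (R64) genome. Each deposited file holds, for 6834 features, raw counts and TPM, both made by the authors. The counts are whole numbers. Whether counting used strand is not given in the sources used here, so antisense and overlapping genes are uncertain. Summed TPM reached 8.17% to 14.1% of what a full library gives, so the listed features are part of what TPM was scaled to. Of the features, 6009 matched the RefSeq R64 annotation (the authors' genome build) and 825 did not.

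The deposited counts went into edgeR 4.0.16 (R 4.3.3, TMM, quasi-likelihood F-test, two-sided, all 11 libraries, 1 coefficient per group, Benjamini-Hochberg adjusted p under 0.05 over 5329 features). The filter was 10 counts in at least 2 of the LS15 and wild-type Abf1 libraries. The common biological coefficient of variation was 0.17. Single-library log2 ratios used log2 CPM with a prior count of 2. CPM carry counting error, larger at 920044 than at 1656533 total counts. LS15 replicates differed beyond sampling noise (chi-square per degree of freedom 6.12, wild-type Abf1 21.7). Simulated counts with 200 of 5329 genes changed gave 4.42% and 4.77% false calls at 2-fold and 3-fold. They held no batch difference, so the real share may be larger.

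Alternatives were DESeq2 1.42.0, RLE factors, filterByExpr, at least 1 count, no small RNA genes, only the groups compared, limma 3.58.1 on log2(TPM + 1) of the deposited TPM, each library left out, and a replicate block. Promoters were searched, and plots drawn, with Python 3.11.15, pandas 2.3.3, numpy 2.4.6 and matplotlib 3.10.9. Named genes were the 12 largest rises and falls, up to 4 called members of each list, strain markers, the 8 largest falls with a consensus match and the 5 largest replicate differences each way; other genes named from the lists were added after seeing their values. The 4 libraries, the lists and the rules were chosen with earlier results of these data known.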

Additional observations from a re-analysis of the deposited data

How the results depend on the processing

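The count of 618 features called in LS15 against wild-type Abf1 lay between 613 and 752 with DESeq2 (637), RLE factors (624), filterByExpr (613), at least 1 count in any library (752) and no small RNA genes (661). It was 1 in a fit of only the groups compared and 29 with limma on log2(TPM + 1). Leaving out each library gave 3 to 509. Every 1 of the 618 features kept its direction in each of these 11 alternatives. For the fits with a library left out this could hardly come out otherwise. In all 618 features both LS15 libraries lay outside the wild-type Abf1 range on the same side. The other alternatives used the same libraries, so the shared direction is a description. For LS15 against no Abf1, the count of 0 became 6 with only the groups compared (LEU2, ARG1, ARG5,6, SNZ1, FET3 and TIS11) and 1 with DESeq2, and it ranged from 0 to 83 with a library left out. For LS15 against NCS506, it became 3 with only the groups compared (CAT2, SNR44 and SNR49), 3 with DESeq2, and ranged from 0 to 46. The labels tie replicate numbers to no shared culture or day, so they were not taken to pair samples. Replicate 1 minus replicate 2 correlated across genes between LS15 and no Abf1 at −0.10, NCS506 at 0.20 and EM shuffle at 0.25, and between NCS506 and EM shuffle at 0.39, so shared numbers may still mark something in these 3 constructs. The fit with a replicate block called 0 features in both comparisons, with 264 (no Abf1) and 483 (NCS506) at an unadjusted p under 0.05. No paired analysis was possible for LS15 against wild-type Abf1 because the wild-type Abf1 labels carry no replicate number. Of 114 called and named genes, 109 stayed called with DESeq2, 62 without the 1 h wild-type Abf1 library, 25 without the 1.25 h one, 86 without LS15 replicate 2 and 1 without LS15 replicate 1, and none reversed. With 2 libraries a group, the shallowest of them LS15 replicate 1, changes of 2-fold or less could often be missed. A left-out library leaves a group of 1 whose spread is assumed to equal that of the others.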

Other observations

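Among called features, 2 had no count in either LS15 library, which allows up to 3 counts in each. RMR1 (YGL250W), which has an Abf1 consensus match upstream, had 0 and 0 counts in LS15 and 17 and 11 counts in wild-type Abf1, with 1, 0 and 0 in no Abf1, 1 and 4 in NCS506 and 1 and 0 in EM shuffle. YKL111C, which was not matched to the annotation used here, had 0 and 0 counts in LS15 and 20 and 12 in wild-type Abf1. It had 1, 0 and 0 counts in no Abf1, 0 and 0 in NCS506 and 1 and 1 in EM shuffle. Reads of this feature thus separated the libraries labelled wild-type Abf1 from the 9 others. Its systematic name is next in number to that of ABF1 (YKL112W), the gene that the wild-type plasmid supplies. Whether its reads come from ABF1 sequence rather than from a separate gene was not tested. Both features fall outside the rule for named genes and were chosen after their values were seen.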
